A study of Mus musculus with 11 samples.

Results

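The genes described here make and police proteins in the endoplasmic reticulum (ER): the stress sensors, the chaperones, the disulphide enzymes and the degradation machinery. They are 35 genes chosen by symbol for these functions, of the 53947 gene rows in the count table. The choice was made with earlier results of these data known, so shares of members called are descriptions. All 35 were matched to a row, Ero1b through its older symbol Ero1lb, and all 35 passed the filter on low counts that left 14133 genes for testing. The cells were alphaTC1-6, an immortalised mouse pancreatic alpha cell line, reverse transfected (while being plated) at a confluency of 70% and collected 72 h after knockdown. The 3 groups were a scramble control (3 libraries), a knockdown of Mettl3 (Mettl3 KD, 4 libraries) and a knockdown of Mettl14 (Mettl14 KD, 4 libraries). Mettl3 and Mettl14 are the core subunits of the enzyme that writes N6-methyladenosine on messenger RNA. The sources used here do not give the kind of knockdown reagent. Nor do the labels call the replicates separate cultures: a p-value then reflects the spread of these samples alone, which could be technical.

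An alpha cell secretes glucagon, which is cut from a precursor that first enters the ER. There the Hsp70 chaperone BiP (Hspa5) and the Hsp90 chaperone Grp94 (Hsp90b1) bind unfolded chains, calnexin and calreticulin hold glycoproteins through their sugars, and protein disulphide isomerases form and reshuffle disulphide bonds. Chains that fail are carried back to the cytosol, ubiquitinated by the ligase Hrd1 (Syvn1) with its partner Sel1l, and degraded. When unfolded protein builds up, the sensors IRE1 (Ern1), ATF6 (Atf6) and PERK (Eif2ak3) start the unfolded protein response: IRE1 splices Xbp1 mRNA into the form that codes for an active transcription factor, cleaved ATF6 enters the nucleus, and PERK slows translation.

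ATF6 and XBP1 act through short promoter elements, so these were looked up first. The windows ran from 250 bases before to 50 bases after each gene's start in RefSeq (build GRCm38.p6), and 29 of the 35 genes had one. Hspa13, Atf6, Sil1, Hyou1, Manf and Derl1 were not matched. The ER stress response element (ERSE) was searched on both strands as CCAAT, any 9 bases, then CCACG. In all, 10 of the 29 genes (34.5%) held it exactly, against 0.137% of the 27025 genes with a window. Those 27025 include the members, so 10 of the 37 genes with a match are members. The members were chosen for their ER functions, so these shares are a description and were not tested. The 10 were Hspa5, Hsp90b1, Dnajc3, Calr, Canx, Pdia6, Ero1b, Creld2, Syvn1 and Derl3. With at most 1 of its 10 fixed letters different, it was found in 16 of the 29 (55.2%), against 1.72% of all genes. The ERSE-II form (ATTGG, any 1 base, then CCACG), which shares the CCACG letters, was found in Dnajb11 and Herpud1, against 0.0444% of all genes. The XBP1 element TGACGTGG was found in Txndc5 and Vcp, against 0.714% of all genes. No member held more than 1 kind of exact element. A match is only a run of letters in these windows, and these libraries did not measure binding.

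The stretches shown are those of BiP, the textbook target, and of some genes whose mRNA passed a test against scramble. Derl3, Dnajb11 and Vcp also held an element and passed such a test, and their stretches are not shown. Each stretch has the element's fixed letters in capitals, and CGTGG followed by ATTGG is the ERSE read on the other strand. They are written 5′ to 3′ on the gene's own strand. Hspa5 lies at chr2:34772013-34772055 on the plus strand, Calr at chr8:84847063-84847105 on the minus strand, Canx at chr11:50325788-50325830 on the minus strand, Pdia6 at chr12:17266479-17266521 on the plus strand, Ero1b at chr13:12565670-12565712 on the plus strand and Herpud1 at chr8:94386365-94386399 on the plus strand. Hsp90b1, at chr10:86705521-86705668 on the minus strand, held the element 2 times, once in each orientation. All 7 stretches lie upstream of the annotated start.
Hspa5: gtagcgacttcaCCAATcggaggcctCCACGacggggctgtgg
Hsp90b1: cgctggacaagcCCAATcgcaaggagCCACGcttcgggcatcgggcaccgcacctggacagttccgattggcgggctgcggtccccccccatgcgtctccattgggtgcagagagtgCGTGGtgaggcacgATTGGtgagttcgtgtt
Calr: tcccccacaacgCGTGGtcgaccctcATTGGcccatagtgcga
Canx: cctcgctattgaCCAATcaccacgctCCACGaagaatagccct
Pdia6: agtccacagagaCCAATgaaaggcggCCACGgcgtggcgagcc
Ero1b: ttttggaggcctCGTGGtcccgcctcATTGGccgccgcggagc
Herpud1: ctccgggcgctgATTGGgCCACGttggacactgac

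**Figure D1:**
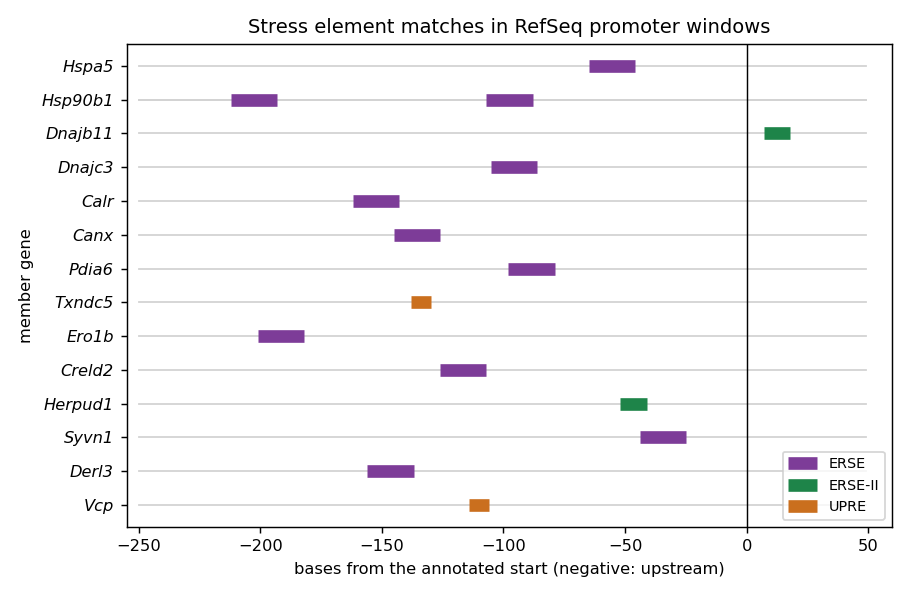
Position of each exact ERSE, ERSE-II and XBP1 element (UPRE) match in the promoter windows of the members that held one, as bases from the annotated gene start on the x axis, with 1 row per gene. Hsp90b1 is the member with 2 ERSE matches, and the Dnajb11 match lies downstream of the start.

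The libraries held 19576632 to 22406527 counts. The targeted transcripts matched the labels: Mettl3 averaged 14.9 ± 1.02 CPM (TMM-scaled counts relative to the library total; mean ± SD) in the controls against 5.34 ± 0.449 CPM with its own knockdown, and Mettl14 averaged 25.2 ± 1.70 CPM against 14.7 ± 0.720 CPM. These are log2 fold changes (± SE) of -1.48 ± 0.08 for Mettl3 and -0.78 ± 0.06 for Mettl14. Mettl14 was also higher in Mettl3 KD than in scramble, at 29.3 ± 1.02 CPM. That is 0.22 ± 0.06 on the log2 scale (adjusted p = 0.00494, quasi-likelihood test of edgeR). Mettl3 in Mettl14 KD was at 15.4 ± 1.02 CPM and did not pass that test (adjusted p = 0.692). Of 12 alpha cell markers, Gc was at 0 in every library, and the list summed to 35697 to 45105 CPM, most of it Gcg, the glucagon gene, at 29359 to 38342 CPM. The 7 beta cell markers summed to 49.9 to 75.3 CPM, most of it Nkx6-1 in every library. The 6 acinar markers summed to 8.64 to 11.1 CPM, most of it Cela1 in every library. Pdx1 of the beta cell list and Prss2 of the acinar list were at 0 in every library. Scramble replicate 2 stood apart. Its 10 lung and airway markers summed to 109 CPM, against 1.88 to 4.55 CPM in the other 10 libraries, its 5 blood markers to 21.0 CPM against 0.573 to 2.14 CPM, and its 6 mesenchymal, endothelial and immune markers to 27.8 CPM against 1.48 to 4.86 CPM. Its 5 plasma cell markers, of a cell type rich in ER, summed to 1.53 CPM against 0.360 to 0.893 CPM. Of these, Igkc (0.460 CPM), Ighm (0.358 CPM) and Cd79a (0.306 CPM) lay above all other libraries. Mzb1 (0.255 CPM) and Jchain (0.153 CPM) lay within their range. No marker on these 4 lists was at 0 in all libraries. Of the 35 genes, 16 had their lowest and 10 their highest scramble level in that library. Counts of calls are therefore given with and without it, as is each gene named whose call it changed or whose called value it moved more than 1.5 times. For values near the threshold, the lowest and the highest value over the 11 fits that each left out 1 library are given, with the number of those fits in which the gene passed.

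In scramble cells the folding genes spanned a wide range of level. Levels between genes were compared as CPM per kilobase of the longest coding transcript. Which transcripts these cells used was not measured, and the SD does not cover an error in length. Hsp90b1, at 437 ± 17.1 CPM per kilobase (SD, n = 3), was highest. It was followed by the prolyl hydroxylase subunit and disulphide isomerase P4hb (376 ± 14.2) and calreticulin (355 ± 22.3), whose scramble ranges overlapped. The segregase Vcp (237 ± 21.0) and the lectin-associated isomerase Pdia3 (216 ± 3.38) also overlapped, and BiP followed at 194 ± 8.34. Xbp1 was at 58.1 ± 3.47 CPM per kilobase. The 3 sensors were lower than Xbp1 on this scale, with Eif2ak3 at 22.9 ± 0.292, Atf6 at 16.8 ± 0.300 and Ern1 at 14.9 ± 0.222 CPM per kilobase. Before division by length these 4 genes were closer, with Xbp1 at 124 ± 7.39 and Atf6 at 122 ± 2.17 CPM. Eif2ak3 was at 104 ± 1.32 and Ern1 at 104 ± 1.54 CPM. Dnajc3, a BiP cochaperone, was at 7.69 ± 0.118 CPM per kilobase and Derl3, a derlin of the degradation channel, was lowest at 1.01 ± 0.304 CPM per kilobase. Hsp90b1 stood within the top 0.696% of the 12215 genes ranked this way, and Derl3 within the top 86.6%.

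**Figure D2:**
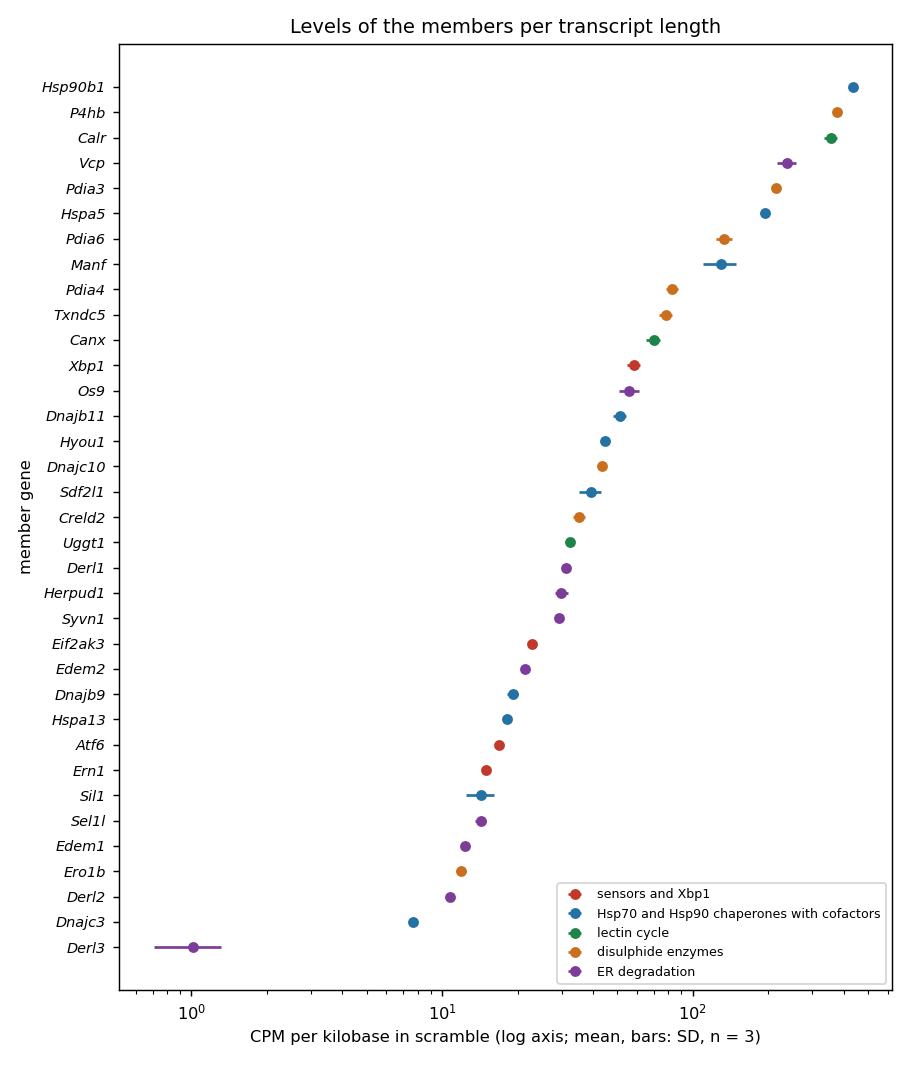
Level of each of the 35 genes in scramble, in CPM per kilobase of the longest coding transcript, on a log axis (mean and SD, n = 3), coloured by role. Levels run from Hsp90b1 at 437 down to Derl3 at 1.01 CPM per kilobase in scramble.

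Differences are given as log2 fold changes ± SE, from 3 scramble and 4 libraries of each knockdown. In Mettl3 KD against scramble, 15 of the 35 genes passed the quasi-likelihood test of edgeR, adjusted by Benjamini-Hochberg over all genes: 8 rose and 7 fell. That is 42.9% of the members, where 31.3% of all genes tested were called (15.5% higher and 15.8% lower). In Mettl14 KD against scramble, 8 passed, 4 higher and 4 lower, or 22.9%, with 20.9% of all genes called (10.1% higher and 10.8% lower). The median log2 fold change of the 35 was -0.02 in Mettl3 KD and -0.01 in Mettl14 KD, against medians over all genes of -0.0039 and 0.00032. Members passed in both directions in both comparisons. Groups did not overlap in CPM for 18 of 35 members in Mettl3 KD, with 35.5% of all genes, and for 13 of 35 in Mettl14 KD, with 28.9% of all genes. Both comparisons use the same scramble libraries. In bulk libraries, fewer cells of a type and less RNA per cell cannot be told apart.

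Without scramble replicate 2, Mettl3 KD gave 10 higher and 6 lower, with Pdia3 and Txndc5 added and Hspa13 lost at an adjusted p of 0.0504, and 30.3% of all genes were called. Mettl14 KD gave 3 higher and 8 lower without that library, with Vcp lost, Eif2ak3, Hspa5, Dnajb9 and Sdf2l1 added, and 19.5% of all genes called. The members' median was then 0.00076 in Mettl3 KD and 0.0092 in Mettl14 KD. These fits measure the results without the library that held the lung, blood and mesenchymal markers.

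**Figure D3:**
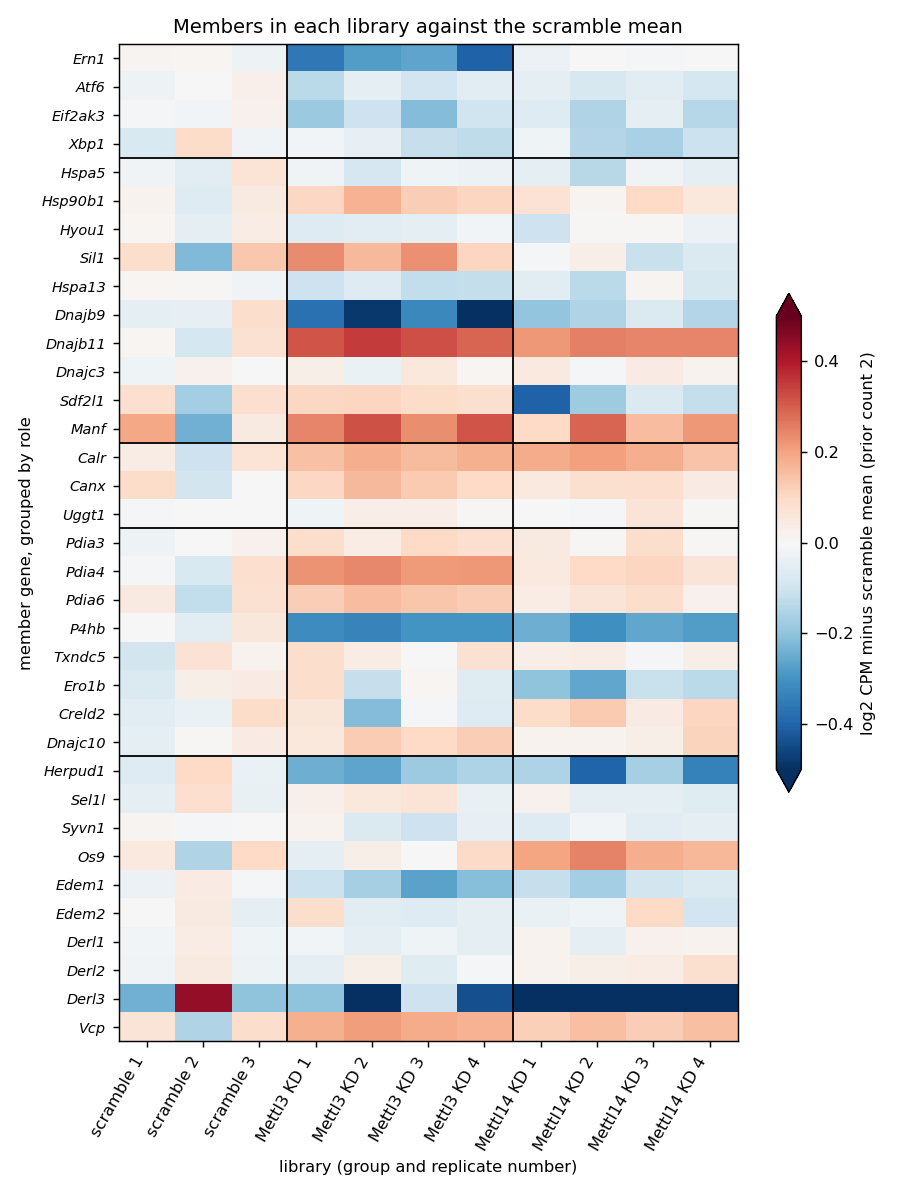
Log2 CPM minus the scramble mean for each of the 35 genes (rows, by role) in each of the 11 libraries (columns), with a colour scale from -0.5 to 0.5. Dnajb9 and Ern1 are lowest in the 4 Mettl3 KD libraries, P4hb and Herpud1 are low in both knockdowns, and Dnajb11 is high in both.

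**Figure D4:**
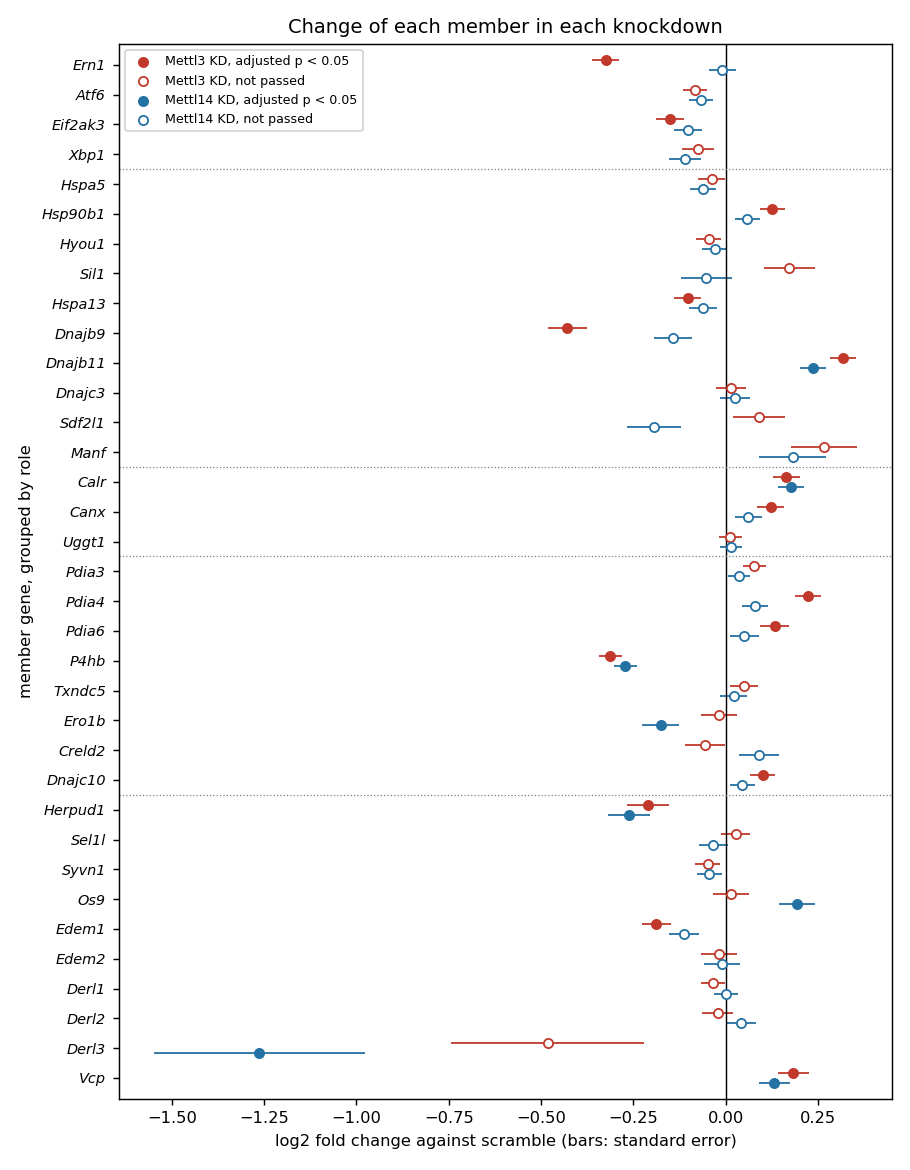
Log2 fold change with SE for each of the 35 genes in each knockdown against scramble, with the members that passed the test marked. Most values lie within 0.3 of 0 on the log2 scale, and Derl3 in Mettl14 KD is the farthest at -1.26.

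Of the sensors and Xbp1, Ern1 and Eif2ak3 fell in Mettl3 KD. Ern1, the kinase and nuclease that splices Xbp1 mRNA, was at 105, 104 and 102 CPM (scramble), 80.9, 85.5, 86.3 and 78.3 CPM (Mettl3 KD) and 101, 104, 103 and 104 CPM (Mettl14 KD), in replicate order. All 4 Mettl3 KD libraries lay below every other library, and the Mettl14 KD values lay within or next to the scramble range. The log2 fold change was -0.32 ± 0.04 (adjusted p = 9.88e-07) in Mettl3 KD and -0.01 ± 0.04 (adjusted p = 0.895) in Mettl14 KD. Eif2ak3, the PERK kinase, was at 103, 103 and 105 CPM (scramble), 91.0, 96.5, 89.1 and 96.7 CPM (Mettl3 KD) and 99.0, 93.2, 100.01 and 93.9 CPM (Mettl14 KD). Every knockdown library lay below the lowest scramble library. It fell by 0.15 ± 0.04 on the log2 scale in Mettl3 KD (adjusted p = 0.00461) and stood at -0.10 ± 0.04 (adjusted p = 0.0621) in Mettl14 KD. With each library left out in turn, the Mettl14 KD value ran from -0.12 ± 0.04 on the log2 scale (adjusted p = 0.0488) without Mettl14 KD replicate 3 to -0.083 ± 0.04 (adjusted p = 0.184) without Mettl14 KD replicate 4, and it passed in 2 of 11 fits, 1 of them without scramble replicate 2 at -0.11 ± 0.04 (adjusted p = 0.0409).

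Atf6, the sensor that is cut in the Golgi to release a transcription factor, was at 119.9, 122 and 124 CPM (scramble), 111, 118, 114 and 117 CPM (Mettl3 KD) and 118, 115, 118 and 115 CPM (Mettl14 KD). The knockdown libraries sat under the scramble libraries, at log2 fold changes of -0.08 ± 0.03 (adjusted p = 0.0571) in Mettl3 KD and -0.07 ± 0.03 (adjusted p = 0.145) in Mettl14 KD, neither past the threshold. Over the fits with 1 library left out, the first ran from -0.10 ± 0.04 on the log2 scale (adjusted p = 0.0551) without scramble replicate 1 to -0.061 ± 0.04 (adjusted p = 0.231) without scramble replicate 3, and passed in 1 of 11, without Mettl3 KD replicate 2 at -0.09 ± 0.03 (adjusted p = 0.0497). Xbp1, whose spliced form is the factor, was at 117, 132 and 122 CPM (scramble), 122, 120.1, 114 and 113 CPM (Mettl3 KD) and 122, 112, 110.4 and 115 CPM (Mettl14 KD). These groups overlapped, with log2 fold changes of -0.07 ± 0.04 (adjusted p = 0.20) in Mettl3 KD and -0.11 ± 0.04 (adjusted p = 0.0786) in Mettl14 KD. The Mettl14 KD value passed in 2 of 11 fits with a library left out and ran from -0.15 ± 0.05 on the log2 scale (adjusted p = 0.0252) without scramble replicate 1 to -0.062 ± 0.04 (adjusted p = 0.291) without scramble replicate 2. In Mettl3 KD it passed in 0 of 11 and ran from -0.11 ± 0.05 on the log2 scale (adjusted p = 0.0653) without scramble replicate 1 to -0.028 ± 0.04 (adjusted p = 0.641) without scramble replicate 2. Counts per gene cannot tell spliced from unspliced Xbp1. In Mettl14 KD, edgeR called 0 of these 4 genes, DESeq2 0 and limma-voom 0, while 3 had an unadjusted p under 0.05.

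Among the 10 Hsp70 and Hsp90 chaperones with their cofactors, Hsp90b1 and Dnajb11 rose and Hspa13 and Dnajb9 fell in Mettl3 KD, and Dnajb11 alone passed in Mettl14 KD. Dnajb11 (ERdj3), a J-domain protein that hands clients to BiP, was at 129, 121 and 136 CPM (scramble), 159.8, 164, 160.5 and 157 CPM (Mettl3 KD) and 149, 153, 152 and 152 CPM (Mettl14 KD). Every knockdown library lay above every scramble library, with the Mettl3 KD libraries highest. The log2 fold change was 0.32 ± 0.04 (adjusted p = 1.11e-06) in Mettl3 KD and 0.24 ± 0.04 (adjusted p = 6.94e-05) in Mettl14 KD. Dnajb9 (ERdj4), which restrains IRE1 by recruiting BiP to it, was at 45.5, 45.7 and 50.03 CPM (scramble), 36.3, 33.6, 37.6 and 32.5 CPM (Mettl3 KD) and 41.0, 42.4, 44.7 and 42.5 CPM (Mettl14 KD). The Mettl3 KD libraries were all below the rest, and the Mettl14 KD libraries lay between them and scramble. It fell by 0.43 ± 0.05 on the log2 scale in Mettl3 KD (adjusted p = 3.15e-06) and stood at -0.14 ± 0.05 (adjusted p = 0.0526) in Mettl14 KD. That last value passed in 4 of 11 fits with a library left out and ran from -0.17 ± 0.06 on the log2 scale (adjusted p = 0.0433) without scramble replicate 1 to -0.089 ± 0.06 (adjusted p = 0.278) without scramble replicate 3, with -0.16 ± 0.05 (adjusted p = 0.0205) without scramble replicate 2. Without Mettl14 KD replicate 1, 2 or 4 its adjusted p was 0.102 to 0.157.

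BiP itself did not pass in either knockdown, at -0.04 ± 0.04 on the log2 scale (adjusted p = 0.449) in Mettl3 KD and -0.06 ± 0.04 (adjusted p = 0.234) in Mettl14 KD. With each library left out, the Mettl14 KD value of BiP passed in 1 of 11 fits and ran from -0.087 ± 0.03 on the log2 scale (adjusted p = 0.0428) without scramble replicate 2 to -0.019 ± 0.04 (adjusted p = 0.761) without scramble replicate 3. Hsp90b1 rose by 0.13 ± 0.03 on the log2 scale (adjusted p = 0.00659) in Mettl3 KD and was at 0.06 ± 0.03 (adjusted p = 0.229) in Mettl14 KD. Hspa13, a microsomal Hsp70, fell by 0.10 ± 0.04 on the log2 scale in Mettl3 KD (adjusted p = 0.0408), a call lost when any 1 of 8 libraries was left out (scramble 1, 2 or 3, Mettl3 KD 1, 3 or 4, Mettl14 KD 1 or 4), at adjusted p-values of 0.0504 to 0.0928.

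Sdf2l1, a BiP cofactor, was at 45.9, 38.5 and 45.8 CPM (scramble), 46.5, 46.6, 46.1 and 45.7 CPM (Mettl3 KD) and 32.7, 38.2, 41.2 and 39.8 CPM (Mettl14 KD). The Mettl3 KD libraries were within 1 CPM of each other, the Mettl14 KD libraries were lower than them, and scramble replicate 2 was the low scramble library. Against scramble the log2 fold change was 0.09 ± 0.07 (adjusted p = 0.370) in Mettl3 KD and -0.19 ± 0.07 (adjusted p = 0.0710) in Mettl14 KD. The latter passed in 2 of 11 fits with a library left out, and ran from -0.27 ± 0.06 on the log2 scale (adjusted p = 0.00139) without scramble replicate 2 to -0.12 ± 0.06 (adjusted p = 0.160) without Mettl14 KD replicate 1. Sil1, which exchanges nucleotide on BiP, was at 25.8, 20.8 and 26.6 CPM (scramble), 28.6, 27.2, 28.4 and 26.1 CPM (Mettl3 KD) and 24.1, 24.8, 22.4 and 23.1 CPM (Mettl14 KD). Scramble replicate 2 was the lowest of all 11. For Sil1 the log2 fold change was 0.17 ± 0.07 (adjusted p = 0.0589) in Mettl3 KD. It passed there in 2 of 11 fits with a library left out, without scramble replicate 1 or 3, and ran from 0.074 ± 0.06 on the log2 scale (adjusted p = 0.366) without scramble replicate 2 to 0.25 ± 0.07 (adjusted p = 0.0175) without scramble replicate 3. Manf, a secreted ER-resident survival factor, stood at 0.27 ± 0.09 on the log2 scale (adjusted p = 0.0514) in Mettl3 KD and 0.18 ± 0.09 (adjusted p = 0.196) in Mettl14 KD. Its Mettl3 KD value passed in 1 of 11 fits with a library left out, running from 0.16 ± 0.06 on the log2 scale (adjusted p = 0.0624) without scramble replicate 2 to 0.37 ± 0.08 (adjusted p = 0.00511) without scramble replicate 1. Its Mettl14 KD value also passed in 1 of 11, running from 0.072 ± 0.06 on the log2 scale (adjusted p = 0.453) without scramble replicate 2 to 0.28 ± 0.08 (adjusted p = 0.0253) without scramble replicate 1. Hyou1, a large Hsp70 relative, and Dnajc3 passed in neither knockdown, with log2 fold changes of -0.046 to 0.025.

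Calreticulin and calnexin rose in Mettl3 KD, and Uggt1, which re-glucosylates unfolded glycoproteins, passed in neither knockdown, with log2 fold changes of 0.013 to 0.014. Calr was at 795, 721 and 812 CPM (scramble), 858, 879, 864 and 878 CPM (Mettl3 KD) and 881, 893, 878 and 856 CPM (Mettl14 KD). All 8 knockdown libraries lay above the 3 scramble libraries, and the knockdowns overlapped each other. The log2 fold change was 0.16 ± 0.04 (adjusted p = 0.00141) in Mettl3 KD and 0.18 ± 0.04 (adjusted p = 0.00133) in Mettl14 KD. Canx rose by 0.12 ± 0.04 on the log2 scale (adjusted p = 0.0146) in Mettl3 KD and was at 0.06 ± 0.04 (adjusted p = 0.249) in Mettl14 KD. Over the fits with a library left out, the Mettl14 KD value passed in 1 of 11 and ran from 0.017 ± 0.03 on the log2 scale (adjusted p = 0.761) without scramble replicate 2 to 0.11 ± 0.04 (adjusted p = 0.0353) without scramble replicate 1. Without scramble replicate 2 the Mettl3 KD value for Canx was 0.08 ± 0.03 on the log2 scale (adjusted p = 0.0480).

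The disulphide enzymes passed in both directions. P4hb, which is also the beta subunit of prolyl 4-hydroxylase, fell in both knockdowns, while Pdia4, Pdia6 and Dnajc10 rose in Mettl3 KD and Ero1b fell in Mettl14 KD. P4hb was at 1075, 1036 and 1118 CPM (scramble), 865, 854, 875 and 874 CPM (Mettl3 KD) and 909, 871, 898 and 887 CPM (Mettl14 KD). No knockdown library reached the lowest scramble library, and 1 Mettl14 KD library fell within the Mettl3 KD range, with the other 3 above it. The log2 fold change was -0.31 ± 0.03 (adjusted p = 2.19e-07) in Mettl3 KD and -0.27 ± 0.03 (adjusted p = 2.21e-06) in Mettl14 KD. Pdia4, an isomerase with several thioredoxin-like domains, was at 198, 189 and 211 CPM (scramble), 232, 235, 231 and 231 CPM (Mettl3 KD) and 206, 213, 215 and 208 CPM (Mettl14 KD). The Mettl3 KD libraries were the 4 highest. Its log2 fold change was 0.22 ± 0.04 (adjusted p = 6.62e-05) in Mettl3 KD and 0.08 ± 0.04 (adjusted p = 0.121) in Mettl14 KD, where it passed in 1 of 11 fits with a library left out and ran from 0.041 ± 0.03 (adjusted p = 0.411) without scramble replicate 2 to 0.13 ± 0.04 (adjusted p = 0.0144) without scramble replicate 3.

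Pdia6 rose by 0.13 ± 0.04 on the log2 scale (adjusted p = 0.0122) in Mettl3 KD, or 0.07 ± 0.03 (adjusted p = 0.0479) without scramble replicate 2. Dnajc10 (ERdj5), a reductase for proteins on their way to degradation, rose by 0.10 ± 0.03 on the log2 scale (adjusted p = 0.0291). That call was lost without scramble replicate 1 (0.08 ± 0.04 on the log2 scale, adjusted p = 0.138), Mettl3 KD replicate 2 (0.09 ± 0.04, adjusted p = 0.0754), replicate 3 (0.10 ± 0.04, adjusted p = 0.0556) or replicate 4 (0.09 ± 0.04, adjusted p = 0.0788).

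Ero1b, an oxidase that recharges the isomerases, was at 48.0, 51.5 and 52.0 CPM (scramble), 53.5, 46.6, 50.8 and 48.4 CPM (Mettl3 KD) and 43.9, 42.1, 46.7 and 45.9 CPM (Mettl14 KD). The Mettl14 KD libraries lay below all scramble libraries, and 3 of 4 of them below every Mettl3 KD library. The log2 fold change was -0.02 ± 0.05 (adjusted p = 0.814) in Mettl3 KD and -0.18 ± 0.05 (adjusted p = 0.0158) in Mettl14 KD. Without scramble replicate 3 the latter was -0.15 ± 0.06 on the log2 scale (adjusted p = 0.0793), and without Mettl14 KD replicate 2 it was -0.15 ± 0.05 (adjusted p = 0.0581). Pdia3, Txndc5 and Creld2 passed in neither knockdown with all 11 libraries. Pdia3, which works with calnexin and calreticulin, stood at 0.08 ± 0.03 on the log2 scale (adjusted p = 0.0601) in Mettl3 KD. It passed in 3 of 11 fits with a library left out, 1 of them without scramble replicate 2 at 0.08 ± 0.03 on the log2 scale (adjusted p = 0.0332), and ran from 0.065 ± 0.03 (adjusted p = 0.172) without scramble replicate 1 to 0.10 ± 0.03 (adjusted p = 0.0429) without scramble replicate 3. Txndc5 was at 0.05 ± 0.04 on the log2 scale (adjusted p = 0.326) in Mettl3 KD, passed in 1 of 11 such fits and ran from 0.0037 ± 0.04 (adjusted p = 0.955) without scramble replicate 1 to 0.087 ± 0.03 (adjusted p = 0.0388) without scramble replicate 2.

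Of the 10 degradation genes, Herpud1 and Edem1 fell and Vcp rose in Mettl3 KD, while Herpud1 and Derl3 fell and Os9 and Vcp rose in Mettl14 KD. Herpud1, a membrane protein that assembles the Hrd1 complex, was at 55.8, 62.6 and 57.0 CPM (scramble), 49.2, 48.6, 51.4 and 52.4 CPM (Mettl3 KD) and 52.5, 44.2, 52.0 and 46.1 CPM (Mettl14 KD). All knockdown libraries were below all scramble libraries. The log2 fold change was -0.21 ± 0.06 (adjusted p = 0.00886) in Mettl3 KD and -0.26 ± 0.06 (adjusted p = 0.00348) in Mettl14 KD. Os9, a lectin that delivers glycoproteins to Hrd1, was at 152, 132 and 157 CPM (scramble), 142, 149, 146 and 156 CPM (Mettl3 KD) and 168, 174, 166 and 164 CPM (Mettl14 KD). The Mettl14 KD libraries were the 4 highest, and scramble replicate 2 was the lowest library. Its log2 fold change was 0.02 ± 0.05 (adjusted p = 0.846) in Mettl3 KD and 0.19 ± 0.05 (adjusted p = 0.00908) in Mettl14 KD, and 0.12 ± 0.03 (adjusted p = 0.00939) in Mettl14 KD without scramble replicate 2. The Mettl3 KD value of Os9 turned negative without that library, at -0.06 ± 0.03 on the log2 scale (adjusted p = 0.243).

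Derl3 had few reads, with 24, 36 and 25 counts in scramble, 25, 12, 27 and 21 in Mettl3 KD and 12, 10, 14 and 12 in Mettl14 KD. Scramble replicate 2 was the highest. Its log2 fold change was -0.48 ± 0.26 (adjusted p = 0.174) in Mettl3 KD and -1.26 ± 0.29 (adjusted p = 0.00330) in Mettl14 KD, and the latter was -0.999 ± 0.31 (adjusted p = 0.0198) without scramble replicate 2. DESeq2 gave Derl3 no adjusted p in Mettl14 KD and so did not call it. Vcp, the ATPase that pulls clients out of the membrane, rose by 0.18 ± 0.04 on the log2 scale (adjusted p = 0.00249) in Mettl3 KD and by 0.13 ± 0.04 (adjusted p = 0.0312) in Mettl14 KD. Without scramble replicate 2 these were 0.11 ± 0.03 on the log2 scale (adjusted p = 0.00109) and 0.06 ± 0.03 (adjusted p = 0.105); the second call was also lost when any 1 Mettl14 KD library was left out, at adjusted p-values of 0.0506 to 0.0764. Edem1, a mannosidase that marks glycoproteins for degradation, fell by 0.19 ± 0.04 on the log2 scale in Mettl3 KD (adjusted p = 0.00131) and was at -0.11 ± 0.04 (adjusted p = 0.0547) in Mettl14 KD. That last value passed in 2 of 11 fits with a library left out, without Mettl3 KD replicate 1 or 3, and ran from -0.13 ± 0.05 on the log2 scale (adjusted p = 0.0538) without scramble replicate 1 to -0.091 ± 0.04 (adjusted p = 0.127) without scramble replicate 2. The Hrd1 ligase Syvn1, its partner Sel1l, the mannosidase-related Edem2 and the derlins Derl1 and Derl2 passed in neither knockdown, with log2 fold changes of -0.049 to 0.042.

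**Figure D5:**
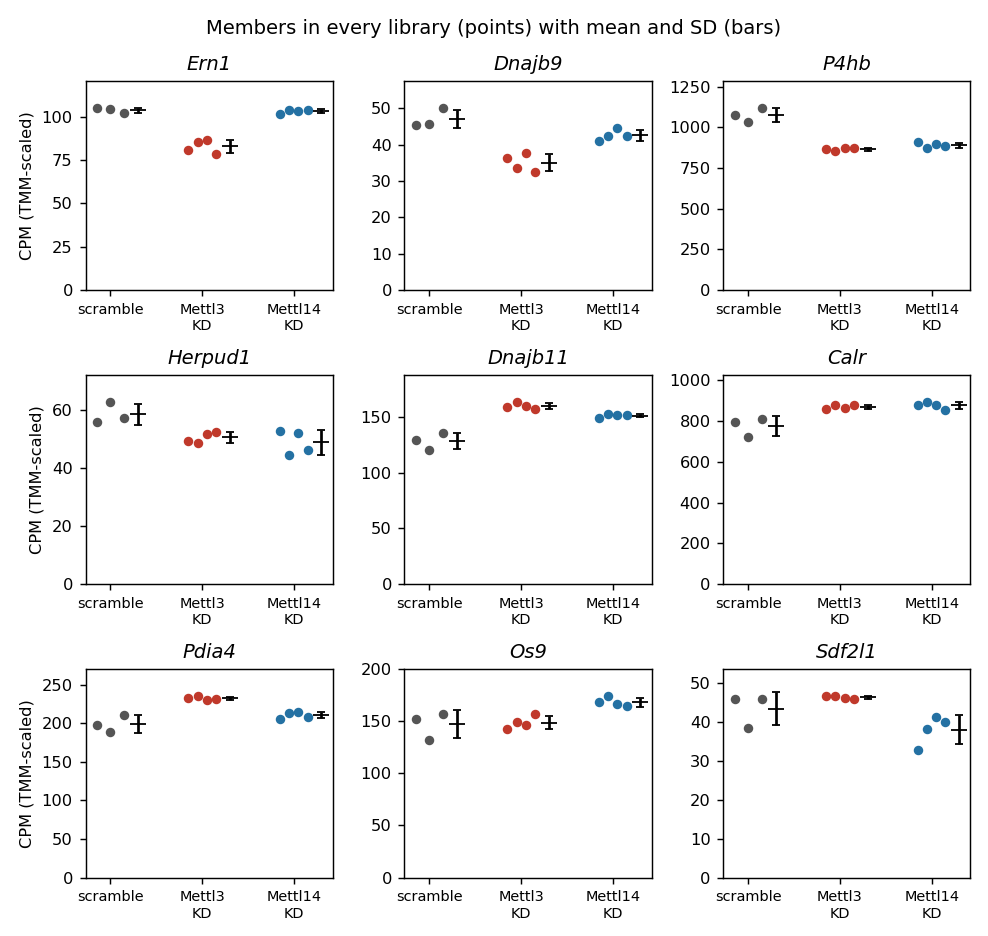
CPM of 9 genes in each library (points), with the group mean and SD, for scramble, Mettl3 KD and Mettl14 KD. Ern1 and Dnajb9 are lowest in Mettl3 KD, P4hb and Herpud1 are lower in both knockdowns than in scramble, and Os9 is highest in Mettl14 KD.

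The knockdowns were also compared directly, which does not use the scramble mean. The spread of each gene was still estimated over all 11 libraries, scramble included. Of the 35 genes, 7 passed (20%, with 8.1% of all genes), 4 higher and 3 lower in Mettl3 KD, with 3.66% and 4.44% of all genes in those directions. The groups did not overlap for 11 of 35, with 17.6% of all genes. The knockdowns lowered their own targets unequally, and Mettl14 was higher in Mettl3 KD than in scramble. Whether either bears on the differences below was not tested. Lower in Mettl3 KD than in Mettl14 KD were Ern1 at -0.32 ± 0.03 on the log2 scale (adjusted p = 4.91e-06), Dnajb9 at -0.29 ± 0.05 (adjusted p = 0.000797) and Os9 at -0.18 ± 0.04 (adjusted p = 0.0203). Higher were Sil1 at 0.23 ± 0.06 on the log2 scale (adjusted p = 0.0303), Sdf2l1 at 0.28 ± 0.07 (adjusted p = 0.0166), Pdia4 at 0.14 ± 0.03 (adjusted p = 0.00804) and Ero1b at 0.16 ± 0.05 (adjusted p = 0.0388). The calls of Ern1, Dnajb9 and Pdia4 held in all 20 alternatives run. Leaving out 1 knockdown library ended the others. Sil1 reached adjusted p-values of 0.0615 to 0.106 with any of Mettl3 KD 1, 2 and 3 and Mettl14 KD 1, 3 and 4 left out. Os9 reached 0.0508 to 0.0680 with any of Mettl3 KD 1, 2 and 3 and Mettl14 KD 1 and 2 left out. Ero1b reached 0.0594 to 0.157 with any of Mettl3 KD 1, 3 and 4 and Mettl14 KD 1, 2 and 4 left out, and Sdf2l1 0.0525 without Mettl3 KD replicate 1. All 7 calls held without scramble replicate 2, with only the 2 knockdown groups fitted, and with limma-voom. DESeq2 lost Ero1b, and a fit with the replicate number as a block lost Ero1b and Os9. Creld2, an ER protein with disulphide isomerase activity, stood at -0.15 ± 0.05 on the log2 scale (adjusted p = 0.0790). It passed in 2 of 11 fits with a library left out, 1 of them without scramble replicate 2 at -0.15 ± 0.05 on the log2 scale (adjusted p = 0.0361), and ran from -0.19 ± 0.05 (adjusted p = 0.0341) without Mettl3 KD replicate 1 to -0.10 ± 0.05 (adjusted p = 0.251) without Mettl3 KD replicate 2. Derl3 stood at 0.78 ± 0.28 on the log2 scale (adjusted p = 0.0951), passed in 2 of 11, 1 of them without scramble replicate 2 at 0.78 ± 0.27 (adjusted p = 0.0434), and ran from 0.65 ± 0.30 (adjusted p = 0.239) without Mettl3 KD replicate 3 to 0.98 ± 0.26 (adjusted p = 0.0347) without Mettl3 KD replicate 2. Leaving out scramble replicate 2, whose level is not part of this comparison, also let Hsp90b1 pass at 0.07 ± 0.02 on the log2 scale (adjusted p = 0.0391), Dnajb11 at 0.08 ± 0.03 (adjusted p = 0.0270) and Pdia6 at 0.08 ± 0.02 (adjusted p = 0.0135), for 8 higher and 4 lower in all, with 14.8% of all genes called.

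The promoter elements were set beside these values. Of the 10 genes with an exact ERSE, 4 rose in Mettl3 KD (Hsp90b1, Calr, Canx and Pdia6) and the other 6 did not pass, while 1 rose (Calr) and 2 fell (Ero1b and Derl3) in Mettl14 KD. Of the 19 genes whose window lacked it, 4 rose and 6 fell in Mettl3 KD, and 3 rose and 2 fell in Mettl14 KD. Without scramble replicate 2, a setting chosen for these counts after the data were seen, the 10 gave 4 higher in Mettl3 KD, and 1 higher and 3 lower in Mettl14 KD, with Hspa5 added. The 19 then gave 6 higher and 6 lower in Mettl3 KD, with Pdia3 and Txndc5 added. In Mettl14 KD they gave 2 higher and 5 lower, with Vcp lost and Eif2ak3, Dnajb9 and Sdf2l1 added. The median log2 fold change of the 10 was -0.0016 in Mettl3 KD and 0.04 in Mettl14 KD, against 0.01 and -0.01 for the 19; without that library the medians were 0.01 and 0.0045 for the 10, against 0.0033 and 0.01 for the 19. With these few genes no direction was read from the element, and the genes with and without it were not compared by a test. Dnajb11 and Herpud1, which held the ERSE-II, passed in opposite directions in both knockdowns.

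Within groups, the median coefficient of variation was 4.31% in scramble, 2.70% in Mettl3 KD and 2.64% in Mettl14 KD. Derl3 had the widest spread in each group, from 11.3% in Mettl14 KD to 31.3% in Mettl3 KD. The 35 genes took 0.854% to 0.903% of all counts per library.

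Of 104 other genes of the same pathway, 103 were matched and 98 were tested; 27 rose and 9 fell in Mettl3 KD, and 16 rose and 5 fell in Mettl14 KD, median log2 fold changes of 0.04 and 0.05. The first is 36.7% of the 98 and the second 21.4%, beside the shares of all genes given above. Without scramble replicate 2, again a setting chosen after the data were seen, 27 rose and 13 fell in Mettl3 KD, and 18 rose and 8 fell in Mettl14 KD, and every gene named here from these lists kept the calls given for it. Among 21 other disulphide and proline isomerase genes, 3 rose and 4 fell in Mettl3 KD (2 and 5 without that library) and 1 rose and 2 fell in Mettl14 KD (unchanged counts). The oxidase Ero1a, the paralogue of Ero1b, was at 68.1 ± 2.56 CPM (scramble), 37.9 ± 3.34 CPM (Mettl3 KD) and 37.1 ± 3.12 CPM (Mettl14 KD), with log2 fold changes of -0.84 ± 0.07 (adjusted p = 2.19e-07) and -0.87 ± 0.07 (adjusted p = 2.41e-07). No knockdown library reached the lowest scramble library for Ero1a. Fkbp14, a proline isomerase, fell by 0.50 ± 0.09 on the log2 scale in Mettl3 KD (adjusted p = 0.000147), and Qsox1, a sulfhydryl oxidase, fell by 0.13 ± 0.03 on the log2 scale in Mettl14 KD (adjusted p = 0.0123).

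Among 14 other chaperone and lectin genes, 3 rose and 2 fell in Mettl3 KD and 3 rose in Mettl14 KD; without scramble replicate 2 these were 3 and 2, and 2 rose and 1 fell. Cnpy2 rose by 0.41 ± 0.05 on the log2 scale (adjusted p = 1.57e-06) in Mettl3 KD and 0.30 ± 0.05 (adjusted p = 9.17e-05) in Mettl14 KD. Mesd, a chaperone of LDL receptor family proteins, fell by 0.29 ± 0.04 on the log2 scale in Mettl3 KD (adjusted p = 9.19e-06), and Prkcsh, a glucosidase II subunit, rose by 0.14 ± 0.04 (adjusted p = 0.0132) in Mettl14 KD. Of 30 other degradation genes, 8 rose and 1 fell in Mettl3 KD (7 and 1 without that library) and 5 rose in Mettl14 KD (6 without it). Ubxn8, which tethers Vcp to the ER membrane, rose by 0.43 ± 0.06 on the log2 scale (adjusted p = 3.94e-05) in Mettl3 KD and 0.27 ± 0.07 (adjusted p = 0.00539) in Mettl14 KD. Selenos, a selenoprotein that binds Vcp, rose by 0.24 ± 0.05 on the log2 scale (adjusted p = 0.000400) and 0.22 ± 0.05 (adjusted p = 0.00165). Of 9 other stress transducers tested, 4 rose and 1 fell in Mettl3 KD (4 and 2 without that library) and 2 rose and 2 fell in Mettl14 KD (2 and 3 without it). Creb3l2, a membrane-bound transcription factor related to ATF6, fell by 0.28 ± 0.03 on the log2 scale in Mettl3 KD (adjusted p = 1.19e-06) and fell by 0.16 ± 0.03 on the log2 scale in Mettl14 KD (adjusted p = 0.00123), while Nfya, a subunit of the factor that binds CCAAT, rose by 0.15 ± 0.03 (adjusted p = 0.00184) and 0.16 ± 0.03 (adjusted p = 0.00158). Of 24 translocon, signal peptidase and glycan transfer genes, 9 rose and 1 fell in Mettl3 KD (11 and 3 without that library) and 5 rose and 1 fell in Mettl14 KD (7 and 2 without it), with Sec11c at 0.28 ± 0.04 on the log2 scale (adjusted p = 3.48e-05) in Mettl3 KD, Ssr2 at 0.22 ± 0.03 (adjusted p = 4.45e-05) and 0.16 ± 0.03 (adjusted p = 0.00204), and Sec62 at 0.22 ± 0.04 (adjusted p = 0.000341) in Mettl14 KD.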

How the data were processed

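Estimated counts per gene were deposited by the authors for 11 libraries; they were made with kallisto, per the submitters' processing notes, and 11.6% of the values were not whole. Library preparation was stranded and mRNA-based, per the labels' protocols. No statement is made on build, annotation or tool version, each not given in the sources used here. Values were rounded to whole counts. Genes were kept by filterByExpr of edgeR 4.0.16 with a minimum count of 10, scaled by TMM, and tested in R 4.3.3 with the quasi-likelihood F-test (robust), 1 mean per group over all 11 libraries, with Benjamini-Hochberg adjustment over 14133 genes at 0.05. The fit had 8 residual degrees of freedom and a common biological coefficient of variation of 4.38%. Each SE was approximated from the F statistic and its log2 fold change. The fit was tested on simulated data with the same spread in every gene and no library that stood apart. That test therefore does not cover a library such as scramble replicate 2. Replicate pairs differed by more than sampling noise, with a lowest chi-square of 2.1 per degree of freedom. Scramble replicate 2 reached 14.9 against scramble replicate 1 and 13.3 against scramble replicate 3. Every other pair was at 2.1 to 3.87. kallisto shares out reads that match several transcripts, so genes with near-identical copies are less certain.

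The members and gene lists were chosen with earlier results of these data known. Values in every library are given for the sensors and Xbp1, for members that passed in a knockdown against scramble with a log2 fold change of at least 0.2 in size, for members that passed between the knockdowns, and otherwise for the member of a role with the smallest adjusted p; 2 genes per pathway list are named for each knockdown. Alternatives used DESeq2 1.42.0, limma 3.58.1, other scalings and filters, a replicate block and the loss of each library. Counts over promoter elements and pathway lists without scramble replicate 2 were added after seeing the data. Promoter windows came from RefSeq, GRCm38.p6.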

Additional observations from a re-analysis of the deposited data

Results flagged for a closer look

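Each gene was checked in each group of 4 libraries for a value far from the rest, and 4 of 70 such groups held one; chance gives about 1 in 20. Dnajc10 was at 190.1 CPM in Mettl14 KD replicate 4, where the next highest was 179.9 CPM. Sel1l was at 91.4 CPM in Mettl14 KD replicate 1, against a next value of 87.0 CPM. Derl1 was lowest at 96.0 CPM in Mettl14 KD replicate 2, where the next was 100.3 CPM. Edem2 was at 52.1 CPM in Mettl3 KD replicate 1, against a next value of 47.5 CPM.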

How the results depend on the processing

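No log2 fold change that passed in a comparison reversed its sign in any of the 20 alternatives run. Values near 0 that did not pass did: in Mettl3 KD, Os9 was -0.032 with limma-voom and ran from -0.056 to 0.074 when each library was left out, Hspa5 from -0.064 to 0.0046 and Ero1b from -0.056 to 0.012. In Mettl14 KD, Ern1 was 0.0021 with the replicate block and ran from -0.014 to 0.0035, and Sil1 ran from -0.15 to 0.021. Of the calls, 13 of 15 in Mettl3 KD against scramble, 6 of 8 in Mettl14 KD against scramble and 3 of 7 between the knockdowns held in every alternative that gave the gene an adjusted p. For Derl3 in Mettl14 KD these were 18 of the 20. DESeq2 gave it no adjusted p and so did not call it, and a minimum count of 50 removed it. Members lower in Mettl14 KD numbered 4, 8 with library totals and no TMM scaling, and 3 to 8 when each library was left out in turn. Members higher in Mettl3 KD than in Mettl14 KD numbered 4, 8 when only the 2 groups compared were fitted, and 1 to 8 when each library was left out. Over all genes, 1145 were called between the knockdowns, 1868 with limma-voom quality weights, 2187 with the 2 groups compared only, and 713 to 2125 when each library was left out. The 2125 came without scramble replicate 2. The cause was not tested. The replicate block gave 7 higher and 6 lower members in Mettl3 KD, 3 and 4 in Mettl14 KD, and 3 and 2 between the knockdowns, with 3784, 2335 and 839 genes called overall; correlations of 10 same-numbered pairs ran from -0.118 to 0.0674, and 2 of 11 libraries correlated best with their own number, so the numbers were not taken to pair the samples. Derl3, at 10 to 36 counts, is limited by depth.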
